A study of Mus musculus with 8 samples.

Results

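The genes described here are 10 transcription factor genes of the AP-1 and immediate early type, taken from the 55414 genes of the table by their symbols: *Jun*, *Junb*, *Jund*, *Fos*, *Fosb*, *Fosl1*, *Fosl2*, *Atf3*, *Egr1* and *Klf6*. Each symbol was found on 1 row. They were measured by RNA-seq in 8 libraries of B16F10, a mouse melanoma cell line, with 2 libraries in each of 4 groups. WT and CypD KO cells were kept at 21% oxygen, and Control and CypD OE cells at 1% oxygen, all for 24 h. CypD KO cells had been made with Cas9 and a guide against *Ppif*, the gene of the mitochondrial protein cyclophilin D (CypD), and selected with puromycin. Control and CypD OE cells carried the empty pcDNA vector or pcDNA with CypD and had been selected with G418. No selection is described for WT cells, and whether a group is 1 clone or several is not given in the sources used here.

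AP-1 is a dimer of basic leucine zipper proteins that binds DNA at the TRE, a short palindrome. JUN proteins can pair with each other or with FOS proteins, whereas FOS proteins need a JUN partner. Many of these genes are immediate early genes: growth factors and stress switch them on within minutes through the MAP kinases ERK, JNK and p38, without new protein synthesis, and the transcripts decay quickly. In melanoma cells AP-1 is known for its link to invasion and to loss of the pigment cell program. All libraries here were taken after 24 h in the stated oxygen.

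The deposited values are TPM, the abundance of a gene's transcripts relative to all transcripts of its library, corrected for gene length. Levels of different genes can thus be set side by side. In such comparisons no correction was made here for GC content or for exons shared between genes, both given below. Differences were fitted with limma on log2(TPM + 1), which understates the change of low genes, and 13526 genes that reached 1 TPM in 2 or more libraries were tested. A gene is said to have risen or fallen where the adjusted p was under 0.05. Of the 10 genes, 8 were tested; *Fosb* and *Fosl1* were below 1 TPM in every library. By the spacing of low values, a single fragment per kilobase of effective length stood for 0.0815 to 0.0975 TPM in the 8 libraries, and 83.7% to 86.4% of the values used lay within 0.15 of whole fragments. The median absolute difference between the 2 libraries of a group was 0.093 to 0.099 on the log2 scale. *Ppif* stood at 50.7 and 49.99 TPM for WT, against 10.4 and 12.1 TPM for CypD KO. Its level was 44.6 and 42.25 TPM for Control and 50.3 and 49.3 TPM for CypD OE. Since the last difference was not past the threshold (limma adjusted p = 0.0794), directions drawn from CypD OE rest on the label of those libraries.

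Melanocyte genes were expressed in every library: *Sox10* was at 187 to 274 TPM and *Mitf* at 190 to 379 TPM. Others of them were lower in some groups. *Trpm1* was at 9.28 and 10.95 TPM in CypD OE, against 374 and 348 TPM in Control. *Tyr* was at 37.4 and 41.25 TPM in WT. Most defining markers of other cell types were at or near 0. *Pecam1* of endothelium was at 0.03 to 1.18 TPM and *Pdgfra* of fibroblasts at 0.48 to 1.02 TPM. *Adgre1* of macrophages, *Cdh5* of endothelium, *Dcn* of fibroblasts and the 3 keratin genes *Krt5*, *Krt14* and *Krt10* were listed at 0 in all 8 libraries, and *Ptprc* was at no more than 0.02 TPM. *Cd68*, a lysosomal gene most abundant in macrophages, had 21.85 and 23.3 TPM in CypD KO against 3.75 and 3.45 TPM in WT. The summed level of the 5 macrophage markers was 24.1 and 25.2 TPM in CypD KO and 1.15 to 4.90 TPM in the other 6 libraries. Of these markers, *Cd68* and *Lyz2* were tested and called higher in CypD KO than in WT, but *Lyz2*, at 1.85 and 1.80 TPM in CypD KO and at most 0.64 TPM elsewhere, had passed the filter only through the CypD KO libraries. The 5 fibroblast markers summed to 34 and 36.9 TPM in CypD KO and 9.21 to 21.0 TPM in the other 6 libraries, with *Postn* higher by 1.91 and *Col1a2* lower by 1.79 than in WT on the log2 scale (limma adjusted p = 9.47e-06 and 0.00176). The part of these genes in the results was not tested. In bulk RNA, fewer cells that express a gene and less RNA per cell cannot be told apart.

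Promoter sequences are shown for the 4 genes whose window holds a site of an AP-1 or EGR protein, since both kinds of factor are themselves among the genes described. RefSeq windows of 300 bases, from 250 before to 50 after a start (build GRCm38.p6), matched 8 of the 10 genes, all but *Egr1* and *Fosl1*. The windows were placed in GRCm39 by exact match. Capitals mark TGACATCA, the variant TRE first known from the *Jun* promoter, in *Jun* and *Klf6*, and the EGR site GCGGGGGCG in *Fosb* and *Fosl2*.
*Jun*, chr4:94940486-94940515, minus strand: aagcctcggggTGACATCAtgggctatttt
*Klf6*, chr13:5911358-5911387, plus strand: ttggtgcgagcTGACATCAtcgtcgcgcag
*Fosb*, chr7:19044002-19044030, minus strand: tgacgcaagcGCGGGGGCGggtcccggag
*Fosl2*, chr5:32293727-32293755, plus strand: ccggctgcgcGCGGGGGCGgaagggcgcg
The *Fosl2* window lies inside the gene as GENCODE M39 draws it, which has an earlier start, and the *Jund* window lies upstream of the GENCODE start and does not reach it. On either strand, TGACATCA was in 3.62% and GCGGGGGCG in 2.91% of all 32851 windows. The classical TRE, TGACTCA, was in 5.20% of all windows, the cAMP element TGACGTCA in 1.79% and the CArG box of serum response factor in 1.63%, and each was in 0 of the 8 windows. The core of the hypoxia response element, ACGTG, was in 19.6% of all windows and in those of *Jund* and *Klf6*. These are matches of letters in short windows, sites outside them were not searched, and no binding was measured.

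CypD KO and WT cells differ in the Cas9 and guide treatment and the puromycin selection as well as in *Ppif*, which cannot be told apart. In CypD KO cells, the 3 JUN genes, *Fosl2* and *Atf3* were each at approximately 4 to 5 times their WT level. *Klf6*, *Fos* and *Egr1* rose less, and all 8 genes tested had risen. Their summed level, *Fosb* and *Fosl1* included, was 86.7 ± 1.63 TPM (SD, n = 2) in WT and 283 ± 7.62 TPM (SD, n = 2) in CypD KO. Over the 8 genes the median of the log2 fold changes was 1.84, against 0.089 over all genes tested. Of all genes tested, 48.4% passed the threshold in this comparison, 30.1% as higher and 18.4% as lower. After median-of-ratios rescaling, which moved the median of all genes to -0.0091, 3187 genes were higher and 3482 lower in place of 4066 and 2486, and the 8 genes were still called higher, by 0.53 to 2.01 on the log2 scale.

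**Figure D1:**
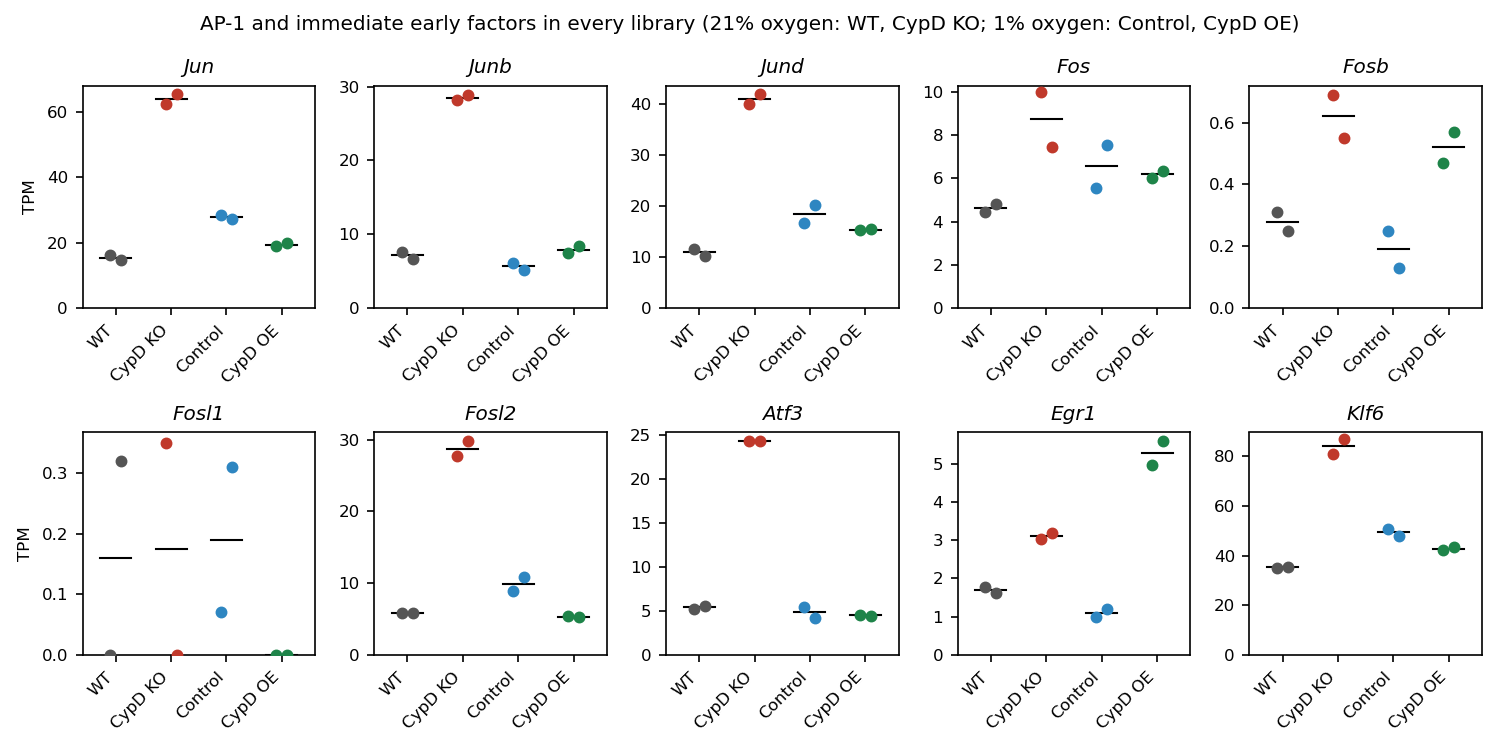
TPM (vertical axis, linear, a scale of its own in each panel) of the 10 genes in each of the 8 libraries; points are libraries and bars the mean of 2. CypD KO is the highest group for *Jun*, *Junb*, *Jund*, *Fosl2*, *Atf3* and *Klf6*, whereas *Egr1* is highest in CypD OE at 4.99 and 5.60 TPM, and *Fosl1* stays at or below 0.35 TPM.

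*Jun* (ENSMUSG00000052684; chromosome 4 of GRCm39, 94937271 to 94940459, minus strand) encodes c-Jun, the JUN protein that is activated by JNK. It had 16.1 and 14.6 TPM in WT, 62.5 and 65.4 in CypD KO, 28.4 and 27.3 in Control, and 18.9 and 20.01 TPM in CypD OE. No 2 groups overlapped. The CypD KO mean was 4.16 times the WT mean, 1.99 ± 0.068 on the log2 scale (SE, limma adjusted p = 3.34e-06). The order of the levels was WT, CypD OE, Control, CypD KO, and each neighbour in it differed from the next (limma adjusted p = 0.0140, 0.00172 and 3.06e-05). The call of *Jun* in CypD OE against WT was lost when certain single libraries were left out, as given below.

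*Junb* (ENSMUSG00000052837; chromosome 8, 85701113 to 85705359, minus strand) encodes a JUN protein that can restrain c-Jun. It was at 7.65 and 6.63 TPM in WT, 28.1 and 28.9 in CypD KO, 6.10 and 5.21 in Control, and 7.45 and 8.44 TPM in CypD OE. The CypD KO libraries were the highest and the Control libraries the lowest, and WT and CypD OE overlapped. CypD KO stood above WT by 1.86 ± 0.11 on the log2 scale (SE, limma adjusted p = 2.96e-05). Control, WT and CypD OE followed each other from low to high without a difference between neighbours past the threshold (limma adjusted p = 0.105 and 0.409).

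*Jund* (ENSMUSG00000071076; chromosome 8, 71151599 to 71153265, plus strand) encodes the JUN protein that is expressed most steadily in resting cells. It was at 11.6 and 10.3 TPM in WT, 40.1 and 41.9 in CypD KO, 16.8 and 20.15 in Control, and 15.3 and 15.5 TPM in CypD OE. No groups overlapped. The WT libraries were the lowest and the CypD KO libraries the highest, a difference of 1.82 ± 0.099 on the log2 scale (SE, limma adjusted p = 2.06e-05). Control and CypD OE lay between and did not differ past the threshold (limma adjusted p = 0.0994).

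The make-up of the JUN family was alike in WT and CypD KO cells. *Jun* was 45.9% ± 0.508 (SD, n = 2) of the summed JUN family TPM in WT and 47.9% ± 0.127 in CypD KO. *Junb* was 21.3% ± 0.439 in WT and 21.4% ± 0.218 in CypD KO, while the family sum went from 33.5 ± 2.69 to 133 ± 3.91 TPM. *Junb* was a smaller part in Control, at 10.9% ± 1.42, than in CypD OE, at 18.6% ± 0.912. These shares are descriptions of 2 libraries each; an exact permutation test of 2 against 2 cannot give a two-sided p below 0.333.

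*Fosl2* (ENSMUSG00000029135; chromosome 5, 32292707 to 32315186, plus strand) encodes FRA2, a FOS protein without the strong activation domain of c-Fos. It had 5.87 and 5.85 TPM in WT, 27.7 and 29.8 in CypD KO, 8.95 and 10.8 in Control, and 5.38 and 5.21 TPM in CypD OE. Its increase in CypD KO was the largest of the 8 genes tested, at 2.12 ± 0.10 on the log2 scale (SE, limma adjusted p = 1.21e-05). In the order CypD OE, WT, Control, CypD KO, the lowest pair did not differ past the threshold (limma adjusted p = 0.414), whereas Control was above WT and CypD KO above Control (limma adjusted p = 0.00515 and 6.59e-05).

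*Fos* (ENSMUSG00000021250; chromosome 12, 85520658 to 85524047, plus strand), the gene of c-Fos, was at 4.43 and 4.80 TPM in WT, 10 and 7.47 in CypD KO, 5.58 and 7.55 in Control, and 6.04 and 6.36 TPM in CypD OE. Both CypD KO libraries were above both WT libraries, but the lower of them was below the higher Control library. The difference from WT was 0.78 ± 0.17 on the log2 scale (SE, limma adjusted p = 0.00878). Without CypD KO replicate 1 it was 0.59 and no longer past the threshold (limma adjusted p = 0.0538). No neighbours in the order WT, CypD OE, Control, CypD KO differed past it (limma adjusted p from 0.132 to 0.823).

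*Fosb* (ENSMUSG00000003545; chromosome 7, 19036621 to 19043976, minus strand), a partner of JUN proteins like c-Fos, was at 0.31 and 0.25 TPM in WT, 0.69 and 0.55 in CypD KO, 0.25 and 0.13 in Control, and 0.47 and 0.57 TPM in CypD OE. At its merged exon length, which joins the exons of 7 annotated transcripts, these values correspond to approximately 8.7 to 48.5 fragments. At the length of a shorter transcript they would correspond to fewer. Fitted without a filter on low values, over 24706 genes, it was higher in CypD KO than in WT by 0.34 on the log2 scale (limma adjusted p = 0.0392) and higher in CypD OE than in Control by 0.35 (limma adjusted p = 0.0445). *Fosl1* (ENSMUSG00000024912; chromosome 19, 5497575 to 5505974, plus strand), the gene of FRA1, was at 0 in 1 WT library and 0.32 TPM in the other, at 0.35 and 0 TPM in CypD KO, at 0.07 and 0.31 TPM in Control, and listed at 0 in both CypD OE libraries. No library held more than approximately 7.4 fragments, so no difference in *Fosl1* was detectable at this depth.

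The FOS genes summed to 10.9 ± 0.431 TPM in WT (SD, n = 2) and to 38.3 ± 0.700 in CypD KO. Their sum was 16.8 ± 2.77 TPM in Control and 12.0 ± 0.177 TPM in CypD OE. Its make-up differed more between groups than that of the JUN family. *Fosl2* was 75.1% ± 5.13 of the summed TPM in CypD KO and 53.7% ± 2.25 in WT, with 71.5% the lowest CypD KO library and 55.3% the highest WT library. In CypD OE, *Fos* was the larger part, at 51.6% ± 1.12, and *Fosl2* was at 44.1% ± 1.65. The summed JUN TPM was 2.80 to 3.62 times the summed FOS TPM in the 8 libraries. It was 2.81 and 3.33 in WT and 3.37 and 3.61 in CypD KO, which did not overlap but lay within the range of the other 4 libraries.

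**Figure D2:**
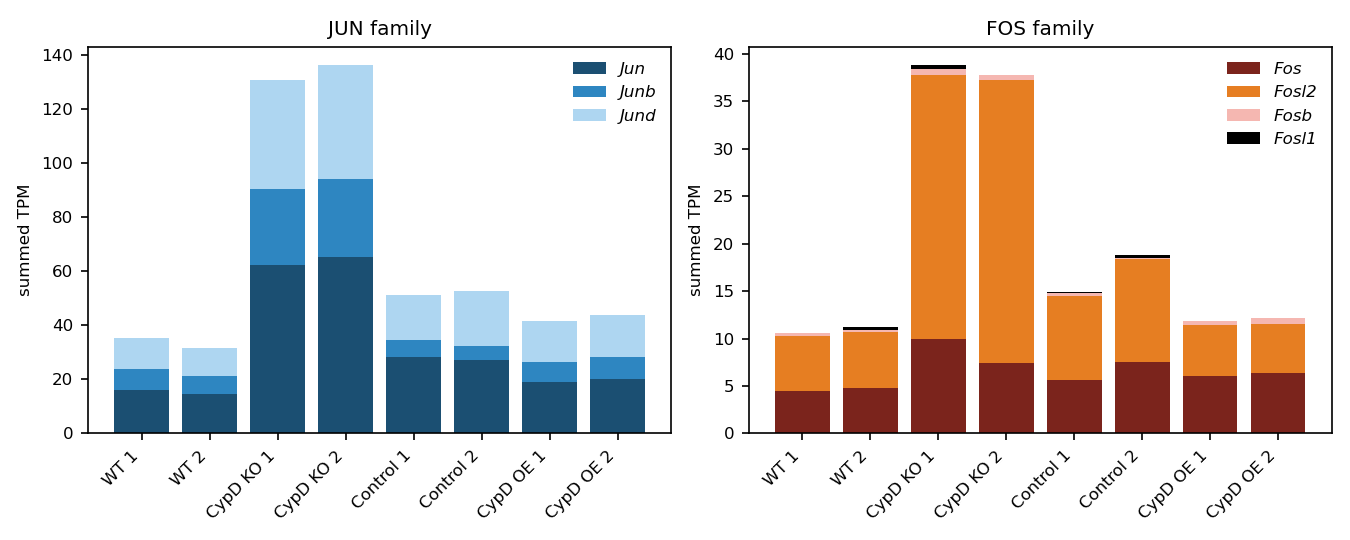
Summed TPM (vertical axis, from 0) of the JUN genes on the left and the FOS genes on the right, stacked by gene, with 1 bar for each library. *Junb* fills 21.3% of the JUN bars in WT and 21.4% in CypD KO on average but 10.9% in Control, and *Fosl2* fills 71.5% and 78.8% of the FOS bars of CypD KO.

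*Atf3* (ENSMUSG00000026628; chromosome 1, 190902493 to 190950241, minus strand) encodes a stress-induced factor that pairs with JUN proteins and often represses its targets. It was at 5.17 and 5.59 TPM in WT, 24.3 and 24.3 in CypD KO, 5.48 and 4.15 in Control, and 4.57 and 4.36 TPM in CypD OE. It rose in CypD KO by 1.99 ± 0.12 on the log2 scale (SE, limma adjusted p = 3.60e-05). The other 3 groups lay within 4.15 to 5.59 TPM, and neighbours among them did not differ past the threshold (limma adjusted p = 0.659 and 0.453).

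*Egr1* (ENSMUSG00000038418; chromosome 18, 34992876 to 34998049, plus strand), a zinc finger gene that ERK signaling induces through serum response factor, had another order. It was at 1.77 and 1.61 TPM in WT, 3.03 and 3.19 in CypD KO, 0.99 and 1.21 in Control, and 4.99 and 5.60 TPM in CypD OE. No 2 groups overlapped, and CypD OE, not CypD KO, was the highest. CypD KO was above WT by 0.61 ± 0.13 (SE, limma adjusted p = 0.00845) and below CypD OE by about the same amount (0.61, limma adjusted p = 0.00822) on the log2 scale. Control and WT, the lowest pair, did not differ past the threshold (limma adjusted p = 0.0969).

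*Klf6* (ENSMUSG00000000078; chromosome 13, 5911481 to 5920393, plus strand), a zinc finger gene of the Krüppel-like family, was the most abundant of the 10 genes in every library. It was at 34.95 and 35.6 TPM in WT, 81.0 and 87.0 in CypD KO, 50.8 and 48.0 in Control, and 42.2 and 43.4 TPM in CypD OE. It rose in CypD KO by 1.23 ± 0.054 on the log2 scale (SE, limma adjusted p = 8.60e-06). Its groups stood in the order WT, CypD OE, Control, CypD KO, as those of *Jun* did, with each neighbour differing from the next (limma adjusted p = 0.0109, 0.0247 and 7.01e-05). The calls of *Klf6* in CypD OE against WT and against Control were lost when certain single libraries were left out, as given below.

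**Figure D3:**
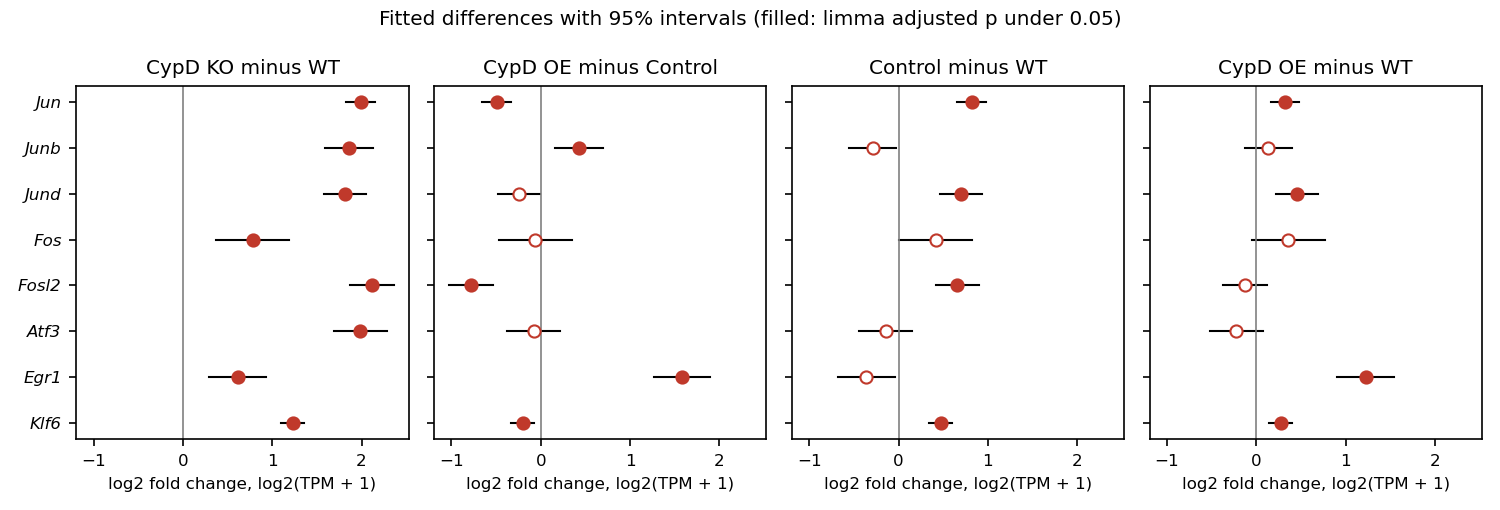
Fitted log2 fold changes of the 8 genes tested (horizontal axis, log2(TPM + 1) scale) with 95% intervals in 4 comparisons; filled points had a limma adjusted p under 0.05. All 8 lie right of 0 for CypD KO minus WT, while for CypD OE minus Control *Egr1* lies at 1.58 and *Fosl2* at -0.78.

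Between CypD OE and Control cells at 1% oxygen, the genes did not move together. *Egr1* rose, with a CypD OE mean 4.81 times the Control mean and 1.58 ± 0.13 on the log2 scale (SE, limma adjusted p = 2.12e-04). *Fosl2* and *Jun* fell, by 0.78 (SE 0.10, limma adjusted p = 0.00142) and by 0.50 (SE 0.068, limma adjusted p = 0.00172) on the log2 scale. In all, 2 genes were called higher and 3 lower of the 8 tested, where 37.4% of all genes tested were called, 19.0% as higher and 18.3% as lower. The median of the 8 log2 fold changes was -0.14, and that of all genes tested 0.0021.

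Smaller differences in this comparison turned on single libraries. *Junb* was called higher, by 0.43 ± 0.11 (SE, limma adjusted p = 0.0227), and lost the call without Control replicate 2 (limma adjusted p = 0.110), without CypD OE replicate 2 (0.116), without a filter (0.0522) and in a fit of these 4 libraries (0.0736). *Klf6* was called lower, by 0.20 (limma adjusted p = 0.0247), and lost the call without Control replicate 1 (0.121), CypD OE replicate 1 (0.108) or CypD OE replicate 2 (0.0678). *Jund* was not called, at -0.24 (limma adjusted p = 0.0994), and passed the threshold without Control replicate 1 (0.0363) and after a correction for GC content (0.0332). For *Fos*, the interval of the difference ran from -0.47 to 0.35, and for *Atf3* from -0.38 to 0.22, on the log2 scale.

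Control and WT differ in oxygen, vector and selection at once, which cannot be told apart, and Control is also the reference of the CypD OE comparison. *Jun*, *Jund*, *Fosl2* and *Klf6* were higher in Control, with log2 fold changes of 0.82, 0.70, 0.66 and 0.47 (limma adjusted p = 4.54e-04, 0.00353, 0.00515 and 0.00152). The other 4 genes were not called, among them *Egr1* at -0.36 and *Junb* at -0.29 (limma adjusted p = 0.0969 and 0.105). These 4 of 8 stand beside 24.2% of all genes tested that were called in either direction and 12.1% that were called higher. CypD OE against WT gave 4 of 8 as higher, namely *Egr1* by 1.23, *Jund* by 0.46, *Jun* by 0.32 and *Klf6* by 0.27, beside 27.7% of all genes called in either direction and 14.0% called higher. Of these, only *Egr1* kept its call without CypD OE replicate 2, and *Egr1* and *Klf6* without WT replicate 2. *Klf6* lost its call without WT replicate 1 (limma adjusted p = 0.0557) and *Jund* without CypD OE replicate 1 (0.0652). *Jun* also lost it in a fit of these 4 libraries (0.0687).

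Against the 2 groups at 1% oxygen, CypD KO differed from Control and CypD OE in oxygen, vector and selection as well, which cannot be told apart. Against Control, 7 of the 8 genes were higher, all but *Fos*, beside 44.0% of all genes called and 27.4% called higher. Against CypD OE, 6 were higher and *Egr1* was lower, beside 48.9% of all genes called, 29.6% as higher and 19.3% as lower.

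Other immediate early genes were mostly higher in CypD KO cells as well. Of a list of 21, 17 were tested, and 13 rose and 2 fell against WT, with a median log2 fold change of 1.00. As for the lists that follow, these counts stand beside 48.4% of all genes called in this comparison and 37.4% in CypD OE against Control. *Ccn1*, a secreted matrix-associated protein, rose from 36.7 and 39.4 TPM to 214 and 214 TPM, up by 2.46 on the log2 scale (limma adjusted p = 6.57e-07). *Csrnp1* and *Klf2* rose by 2.25 each (limma adjusted p = 1.16e-04 and 6.65e-05). The 2 genes that fell were *Myc*, by 1.08, and *Nr4a1*, by 0.42 (limma adjusted p = 8.46e-06 and 0.00696). *Nr4a3* and *Nfkbiz* were not called, and *Egr2*, *Egr3*, *Egr4* and *Arc* were too low to be tested.

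In CypD OE against Control, the same list was split, with 6 genes higher and 4 lower of 17. *Nr4a3*, an orphan nuclear receptor gene, fell by 1.34, *Klf10* by 1.22 and *Ier5* by 1.05 (limma adjusted p = 1.12e-05, 3.37e-04 and 3.50e-04). *Ier2* rose by 0.92 and *Myc* by 0.75 (limma adjusted p = 5.24e-04 and 6.39e-05). *Ier3* fell by 0.27 (limma adjusted p = 0.00538). *Myc* moved in opposite directions in the 2 comparisons, which share no library, and the difference between them was not itself tested. It was at 99.1 and 93.4 TPM in WT, 45.5 and 44.4 in CypD KO, 71.1 and 74.8 in Control, and 125 and 122 TPM in CypD OE.

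Among the further dimer partners of AP-1, the median change in CypD KO was smaller. Of 12 genes of the BATF, JDP2, ATF2 and MAF groups, 10 were tested, and 5 rose and 0 fell in CypD KO, with a median of 0.35. This share called is close to the 48.4% of all genes tested. *Creb5*, of the ATF2 group, went from 0.13 and 0.15 TPM to 2.82 and 3.72 TPM, a log2 fold change of 1.90 (limma adjusted p = 2.52e-04). *Jdp2*, a repressor that pairs with JUN proteins, rose by 0.86 and *Maf* by 0.83 (limma adjusted p = 1.48e-04 and 3.24e-04), and *Maff* and *Atf7* by 0.52 and 0.37 (limma adjusted p = 0.00653 and 0.00843). *Atf2* itself stayed near 60 TPM in WT and CypD KO, at a difference of 0.017 on the log2 scale (95% interval -0.11 to 0.14). In CypD OE against Control, 6 of the 10 rose and 1 fell. *Creb5* rose by 1.19, *Batf* by 1.05 and *Maff* by 0.62 (limma adjusted p = 0.00311, 0.0124 and 0.00410), of which *Batf* had passed the filter only through the CypD OE libraries, and *Atf2* fell by 0.29 (limma adjusted p = 0.00495).

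The genes that act upstream had a smaller median change in CypD KO than the AP-1 genes. Of 15 tested genes of the MAP kinase cascade, 7 rose and 3 fell in CypD KO with a median of 0.12, and 7 rose and 2 fell in CypD OE with a median of 0.14. *Map2k1*, the gene of the ERK kinase MEK1, rose by 0.84 in CypD KO and fell by 0.66 in CypD OE (limma adjusted p = 2.72e-05 and 1.24e-04). The other genes that fell were *Map2k2*, *Map2k4* and *Mapkapk2* in CypD KO and *Mapk3* in CypD OE, by 0.25 to 0.53. *Mapk3*, the gene of ERK1, rose by 0.78 and *Braf* by 0.55 in CypD KO (limma adjusted p = 1.31e-04 and 2.47e-04), and *Rps6ka3*, a kinase gene downstream of ERK, rose by 0.89 in CypD OE (limma adjusted p = 1.04e-04). Of 10 transcription factor genes that drive immediate early genes, 7 rose and 1, *Creb1*, fell in CypD KO, and 6 rose and 0 fell in CypD OE. *Elk3*, a ternary complex factor gene, rose in both, by 0.77 and 0.95 (limma adjusted p = 3.39e-05 and 2.45e-05), and *Srf* by 0.56 and 0.41 (limma adjusted p = 0.00566 and 0.0262). *Mef2c* rose by 1.95 in CypD OE (limma adjusted p = 3.41e-06). Kinase activity was not measured.

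A further list held genes that ERK, JNK and p38 signaling induce and that feed back on it or mark it. In CypD KO, 10 of 15 tested rose and 2, *Dusp2* and *Dusp4*, fell, with a median of 0.53. The 3 largest changes were those of *Dusp10*, *Dusp1* and *Dusp8*, phosphatase genes whose products act on JNK and p38, by 2.61, 2.30 and 2.06 (limma adjusted p = 1.21e-05, 1.16e-05 and 1.84e-04). In CypD OE, 10 of 15 rose and 3 fell, with a median of 0.51. There the largest changes were those of *Etv4*, *Etv5* and *Spry4*, which are known readouts of ERK activity, by 3.37, 2.84 and 1.81 (limma adjusted p = 2.73e-04, 8.85e-07 and 9.78e-05). The same genes also rose in CypD KO against WT, by 1.23, 0.48 and 0.53 (limma adjusted p = 0.0138, 8.48e-04 and 0.0126). They were lower in Control than in WT, by 1.25, 0.98 and 0.63 (limma adjusted p = 0.0258, 1.62e-04 and 0.0135). *Etv4* was at only 0.30 and 1.38 TPM in Control. *Etv5* was at 7.11 and 7.22 TPM in Control and 59.5 and 55.6 TPM in CypD OE. *Dusp10* and *Dusp1* fell in CypD OE, by 1.06 and 0.75 (limma adjusted p = 9.42e-04 and 0.00235), as did *Dusp2*, by 1.14 (limma adjusted p = 0.00274).

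Of 22 genes known as AP-1 targets, 14 were tested, and 14 rose in CypD KO, with a median of 2.19. *Timp1* rose by 3.83 and *Sphk1* by 2.998 (limma adjusted p = 9.49e-06 and 6.23e-06). The 8 genes that were not tested include *Mmp3*, *Areg* and *Ereg*, listed at 0 in all 8 libraries. The list was compiled by hand, and many of its genes also answer to other factors. In CypD OE against Control, 7 rose and 2, *Plau* and *Hmox1*, fell, with a median of 0.14. *Lif* rose by 1.39 and *Sphk1* by 1.18, and *Hmox1* fell by 0.83 (limma adjusted p = 3.92e-04, 4.96e-04 and 3.83e-05).

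**Figure D4:**
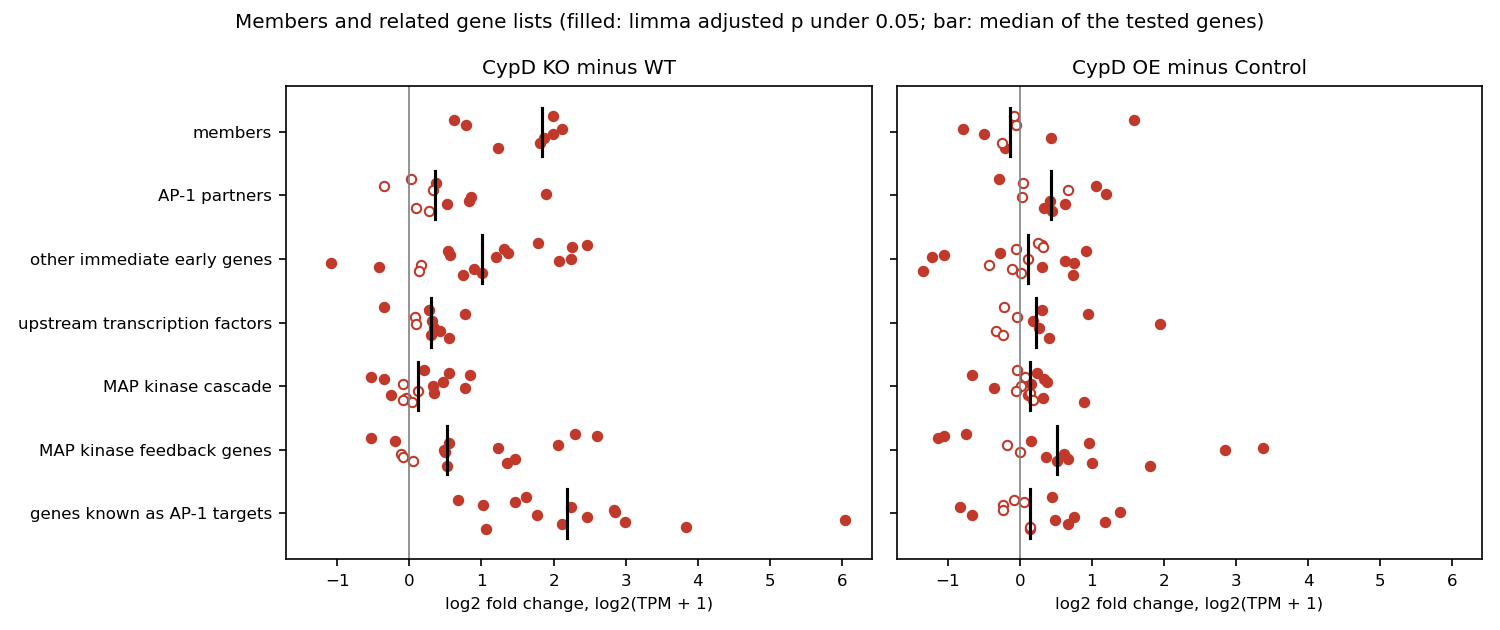
Log2 fold changes (horizontal axis, log2(TPM + 1) scale) of the tested genes of 7 lists in 2 comparisons that share no library; filled points had a limma adjusted p under 0.05, and bars are medians. For CypD KO minus WT, the medians of the 10 AP-1 and immediate early genes described here (row "members"), 1.84, and of the AP-1 targets, 2.19, lie farthest right, while for CypD OE minus Control the 2 rightmost points are *Etv4* and *Etv5*.

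Immediate early genes also answer to handling of the cells, and the time of the last medium change is not given in the sources used here. Of 9 heat shock genes, 7 were tested, and 2 rose and 3 fell in CypD KO. *Hspa1b*, which has a near-identical copy and is therefore uncertain, was at 3.91 and 4.25 TPM in WT and 6.19 and 5.07 TPM in CypD KO (limma adjusted p = 0.0604), while *Hspd1* fell by 0.96, *Hspe1* by 0.79 and *Hsph1* by 0.68 (limma adjusted p = 8.30e-07, 1.37e-05 and 1.14e-05), and *Dnajb1* and *Bag3* rose by 0.35 and 0.40 (limma adjusted p = 0.00559 and 0.00136). In CypD OE, *Hspd1* rose and *Hsp90aa1*, *Hsph1*, *Dnajb1* and *Hspe1* fell, *Hsp90aa1* by 0.75 (limma adjusted p = 1.57e-05). The part of handling in the AP-1 levels was not tested.

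The pigment cell genes, whose loss AP-1 is known for, moved in both directions. Of 9, 2 rose and 6 fell in CypD KO, and 1 rose and 6 fell in CypD OE. *Tyr*, the gene of tyrosinase, rose by 1.97 in CypD KO, *Trpm1* fell by 1.81 and *Pmel* by 0.64 (limma adjusted p = 4.02e-06, 1.56e-05 and 3.37e-05). The other gene that rose in CypD KO was *Slc45a2*, by 0.39 (limma adjusted p = 4.15e-04). In CypD OE, *Trpm1* fell by 5.03, *Slc45a2* by 1.02 and *Mitf* by 0.93 (limma adjusted p = 5.02e-07, 1.10e-05 and 1.86e-05), and *Sox10* rose by 0.20 (limma adjusted p = 0.00241).

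The JUN genes are rich in GC. The longest transcript of *Jund* had 67.2% GC and that of *Junb* 62.6%, above 58.8%, the 95th percentile of the genes tested, while *Klf6* had 42.4%. After correction for GC content and transcript length, the log2 fold changes in CypD KO against WT were 1.72 for *Jund*, 1.75 for *Junb*, 1.86 for *Jun* and 1.14 for *Klf6*, and all 8 genes were called, a correction chosen after seeing the data. Several of the genes share exon bases with a gene on the other strand: *Jun* shares 528 with *Junos*, *Junb* 173 with *Prdx2*, *Jund* 877 with *Gm11175* and *Fosl1* 1163 with *Ccdc85b*. *Junos* was at 0.16 to 2.29 TPM, *Gm11175* at 0 to 3.63 TPM and *Prdx2* at 87.2 to 151 TPM. Whether reads were counted by strand is not given in the sources used here, and without strand such reads cannot be told apart.

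Genes with the most similar pattern over the 8 libraries were found by the root mean square difference of centred log2(TPM + 1). For *Jun*, they were *Sod3*, *Azin2* and *Mapre3*, at 0.123, 0.131 and 0.138. For *Fosl2*, they were *Ctsb*, *Slc41a2* and *Plaat3*, at 0.116, 0.132 and 0.137. *Atf3* was nearest to *Klhdc8a*, *Itga7* and *Slc27a1*, at 0.107, 0.111 and 0.132, and *Egr1* to *Hoxa11*, *Adamts5* and *Asns*, at 0.108, 0.118 and 0.123. *Junb* was nearest to *Lrrk2*, *Nox4* and *Cd59a*, at 0.094, 0.110 and 0.115, and *Jund* to *Tcta*, *2810029C07Rik* and again *Mapre3*, at 0.108, 0.109 and 0.115. *Fos* was nearest to *G6pc3*, *Trmt2b* and *Higd2a*, at 0.099, 0.106 and 0.110, and *Klf6* to *Trim56*, *Dtx3l* and *Parp9*, at 0.063, 0.077 and 0.081.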

How the data were processed

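The authors made libraries from total RNA with a kit that removes ribosomal RNA. Their processing notes name Cutadapt 3.4 for filtering, STAR 2.7.8a for alignment, RSEM 1.3.1 and the build GRCm39. The deposited values are TPM to 2 decimals, 1 column for each of 8 libraries. The authors tested counts with DESeq2; counts were not used here. TPM is relative to all other transcripts of a library.

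Genes reaching 1 TPM in 2 or more libraries entered a limma fit (version 3.58.1, R 4.3.3) of log2(TPM + 1) (a mean for each of 4 groups over all 8 libraries, eBayes with trend, two-sided, Benjamini-Hochberg adjustment over the genes tested, threshold 0.05). The fit was tested on simulated data. No source used here says that libraries of 1 group came from separate cultures, so the p-values measure only the spread between these libraries. Low values were matched to whole fragments, within 0.15, on genes with 1 transcript of 600 to 3000 bases (GENCODE M39); evenly spread values would give 30%.

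The genes described and the lists were chosen with earlier results of these data known. From the lists, the text names up to 3 genes past the threshold with the largest change in each of the 2 main comparisons, the genes of counts of 5 or fewer, the 3 genes most like each gene tested, and some others chosen after their values were seen (among them *Ier2*, *Myc*, *Atf2*, *Hspa1b* and the genes named as not called or not tested). Some genes of the AP-1 target list are not reported here by name. Replicate numbers come from the library names, with the library lacking a suffix taken as replicate 1. Alternatives were a pseudocount of 0.1, no filter, a stricter filter of 5 TPM, rescaling by median-of-ratios, fits of only 4 libraries, eBayes with no trend, the replicate number as a block, and leaving out each library. A loess correction for GC content and transcript length was added after the data had been seen. Promoter sequences are from RefSeq (GRCm38.p6).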

Additional observations from a re-analysis of the deposited data

How the results depend on the processing

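In CypD KO against WT, 8 genes were called higher, 7 with a filter of 5 TPM, under which *Egr1* was not tested, 9 without a filter, which adds *Fosb*, and 7 to 8 when a library was left out; 0 were lower in all of these. In CypD OE against Control, 2 were called higher, and 1 with a filter of 5 TPM and 1 in a fit of the 4 libraries; leaving out a library gave 1 to 2 higher and 2 to 3 lower. There *Fos* ran from -0.25 without Control replicate 1 to 0.13 without Control replicate 2, and *Atf3* from -0.246 without Control replicate 2 to 0.085 without Control replicate 1; in Control against WT, *Atf3* ran from -0.31 without Control replicate 1 to 0.023 without Control replicate 2. The changes of sign were not past the threshold. In Control against WT, eBayes without trend called 1 gene lower, *Egr1*, in place of 0. In CypD OE against WT, leaving out a library gave 1 to 4 higher in place of 4. Over all genes, Control against WT gave 998 higher and 983 lower in the fit of its 4 libraries, in place of 1634 and 1635, with 939 to 1466 higher and 983 to 1434 lower when a library was left out; CypD OE against WT gave 1075 to 1785 higher and 1128 to 1773 lower, in place of 1891 and 1853. Where an arm kept 1 library, that library was assumed to vary like the others. The cause of these shifts was not tested.

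With the replicate number as a block, no call of the 8 genes changed in the 4 comparisons refitted, which leave out CypD KO against Control and against CypD OE; 3894 genes were higher and 2391 lower in CypD KO. Deviations of same-numbered libraries had correlations of -0.03 to 0.108 between groups, so the numbers were not taken as pairs. *Fosl1*, with at most approximately 7.4 fragments in a library, limits what its values can show.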
